A study of Mus musculus with 36 samples.

Results

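Gfap and 9 other genes that mark reactive astrocytes (Vim, Serpina3n, Aspg, Cd44, Osmr, Steap4, S1pr3, Timp1 and Cp) were followed in mouse brain RNA. They were chosen by gene symbol, and they account for 10 of the 22154 genes and 29 of the 48717 transcripts in the mRNA table. The groups were APP/PS1 mice at 9 months, wild-type mice at 9 months, APP/PS1 mice at 6 months and wild-type mice at 6 months, with 3 long RNA libraries in each. All 4 groups carry the strain label C57BL/6, and the APP/PS1 mice express the alleles APP695swe and PS1-dE9, for which the labels name no promoter, line or sex. The series asks how the brain transcriptome of this amyloid model differs from wild type at both ages. The labels leave unsaid whether the replicate libraries are different animals, and the p-values therefore speak only of the spread among libraries, part of which may be technical.

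Astrocytes respond to injury, inflammation and amyloid plaques by enlarging their processes and changing their transcription, a state called reactive. Its hallmark is GFAP, the main intermediate filament protein of mature astrocytes, which assembles together with vimentin. Cytokines of the interleukin-6 family, which signal through the shared receptor gp130 and the transcription factor STAT3, are well-known inducers of this state. The other genes encode a secreted protease inhibitor (Serpina3n), an asparaginase (Aspg), the hyaluronan receptor (Cd44), the receptor subunit for oncostatin M (Osmr), a sphingosine 1-phosphate receptor (S1pr3), a metalloproteinase inhibitor (Timp1), a metalloreductase (Steap4) and the ferroxidase ceruloplasmin (Cp). All 10 are therefore expressed, or inducible, in astrocytes, but several are also made by other cells of the brain.

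The FPKM of all genes summed to 292540 to 301778 per library, and 16757 to 17062 genes were above 0. FPKM carry no read counts, so the depth behind each value is unknown. App, the gene of 1 of the labelled alleles, was higher in every APP/PS1 library than in every wild-type library, so these libraries did not go against their genotype labels. The tissue label reads brain, while the extraction protocol names retinas. Of 8 photoreceptor markers, 7 averaged under 0.5 FPKM, and the 8 together summed to 0.940 to 1.60 FPKM over the 12 libraries, against 1948 to 2137 FPKM for 20 astrocyte markers. In bulk tissue, fewer cells of a type and less RNA per cell cannot be told apart.

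Promoter sequences are shown for the pair of filament genes, which parted in these libraries, and for Aspg, the member whose profile lay nearest to that of Gfap. They are RefSeq sequences of build GRCm38.p6, each with 250 bases before and 50 bases after the start site. Capitals mark a match to the STAT motif TTCNNNGAA or the AP-1 motif TGANTCA, both palindromic and read on both strands. The Gfap promoter is chr11:102897151-102897450 (minus strand), the Vim promoter is chr2:13574061-13574360 (plus strand) and the Aspg promoter is chr12:112106433-112106732 (plus strand).
Gfap: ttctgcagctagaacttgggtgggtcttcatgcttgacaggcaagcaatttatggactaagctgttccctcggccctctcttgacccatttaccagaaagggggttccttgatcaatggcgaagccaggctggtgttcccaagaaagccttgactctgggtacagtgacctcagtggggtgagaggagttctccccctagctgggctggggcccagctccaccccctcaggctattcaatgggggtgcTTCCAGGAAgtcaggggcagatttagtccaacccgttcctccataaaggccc
Vim: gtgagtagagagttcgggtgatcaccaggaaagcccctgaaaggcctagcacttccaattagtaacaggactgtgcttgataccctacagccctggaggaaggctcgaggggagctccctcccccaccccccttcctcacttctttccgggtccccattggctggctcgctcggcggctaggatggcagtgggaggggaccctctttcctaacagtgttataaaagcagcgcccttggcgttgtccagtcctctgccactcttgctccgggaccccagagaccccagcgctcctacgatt
Aspg: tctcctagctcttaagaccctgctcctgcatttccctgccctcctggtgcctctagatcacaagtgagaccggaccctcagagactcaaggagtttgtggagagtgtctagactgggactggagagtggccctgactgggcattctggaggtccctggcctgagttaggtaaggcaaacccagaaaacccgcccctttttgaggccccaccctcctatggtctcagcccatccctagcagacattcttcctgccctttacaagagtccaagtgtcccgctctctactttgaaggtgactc
The Gfap window held 1 STAT match, TTCCAGGAA at bases 249 to 257 of the window, which spans the start site. The Vim and Aspg windows held no match to either motif. Among all members, 11 promoter windows of 10 genes were found, and 2 held a STAT match, those of Gfap and Steap4 (TTCCCGGAA at bases 135 to 143). That compares with 8.30% of 32851 RefSeq promoter windows of this length. An AP-1 match lay in the Osmr window and in 1 of the pair of Cp windows (TGATTCA in both), against 7.81% of all windows. The NFI motif TTGGCA, searched on both strands and not set in capitals, lay in the Osmr and Steap4 windows, against 14.1% of all windows. A match of letters describes the sequence and is no evidence of binding.

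Gfap was the most abundant of the 10 genes and had the largest rise in APP/PS1 at both ages. At 9 months it had 149, 112 and 132 FPKM in the APP/PS1 libraries, against 52.8, 75.6 and 61.1 FPKM in the wild-type libraries. At 6 months it had 86.3, 92.1 and 109 FPKM in the APP/PS1 libraries, against 56.2, 62.0 and 61.0 FPKM in the wild-type libraries. Every APP/PS1 library was above every wild-type library, also across the ages, and the 3 APP/PS1 libraries of 9 months were the 3 highest of the 12. Gfap averaged 131 ± 18.3 FPKM in APP/PS1 and 63.2 ± 11.6 FPKM in wild type at 9 months, and 95.9 ± 12 FPKM in APP/PS1 and 59.7 ± 3.12 FPKM in wild type at 6 months (SD, n = 3 each).

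Differences were tested with limma on log2(FPKM + 0.25) over 13593 genes whose mean reached 0.5 FPKM, and a Benjamini-Hochberg adjusted p under 0.05 was called. The difference in Gfap at 9 months was 1.06 on the log2 scale (SE 0.14, adjusted p = 0.0138), or 2.08-fold with a 95% interval of 1.69 to 2.56. Gfap was 1 of 13 genes called at 9 months, where 0.0956% of tested genes were called, and the 7 other members that could be tested were not called. At an unadjusted limma p under 0.05 there were 3 members of 8 (Gfap, Aspg and Serpina3n), against 9.73% of all genes. The call was lost without APP/PS1 library 1 (limma adjusted p = 0.0601), APP/PS1 library 3 (0.0914), wild-type library 1 (0.0624) or wild-type library 3 (0.0669) of 9 months, and with the 6 libraries of 9 months fitted alone (0.0915). Without 1 library at a time the log2 change lay between 0.94 and 1.20, within the interval of the fit on all 12.

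At 6 months the difference in Gfap was 0.67 (SE 0.14, limma adjusted p = 0.131), or 1.60-fold with a 95% interval of 1.30 to 1.96, and it was not called. No member was called at 6 months, where 0.0441% of tested genes were called, and Gfap and Aspg were the 2 of 8 with an unadjusted limma p under 0.05, as had 11.7% of all genes. Its unadjusted p ranked 41st of 13593 at 6 months and 8th at 9 months. All 7 tested markers of striatum were lower in APP/PS1 at 6 months, and 7 had an unadjusted limma p under 0.05, against 11.7% of all genes. They summed to 328 to 339 FPKM in APP/PS1 and 380 to 438 FPKM in wild type at that age, and none was called. At 9 months the changes of all 7 were above 0. Whether the brain regions sampled bear on the Gfap values was not tested. Averaged over both ages, Gfap was 0.87 higher in APP/PS1 (SE 0.10, limma adjusted p = 0.00453). It was the called member in that comparison, where 0.118% of tested genes were called. This averaged call held without any 1 of the 12 libraries in turn, with limma adjusted p-values of 0.0014 to 0.0206. It was lost when the microglial marker level entered as a covariate (limma adjusted p = 0.997), an alternative chosen after seeing the data. The log2 change was then 0.88, with an SE of 0.36 in place of 0.10. The microglial level and the genotype run together in these libraries, so this fit cannot part them. That level takes in Cst7, Trem2 and Tyrobp, which were themselves called higher in APP/PS1 over both ages.

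**Figure D1:**
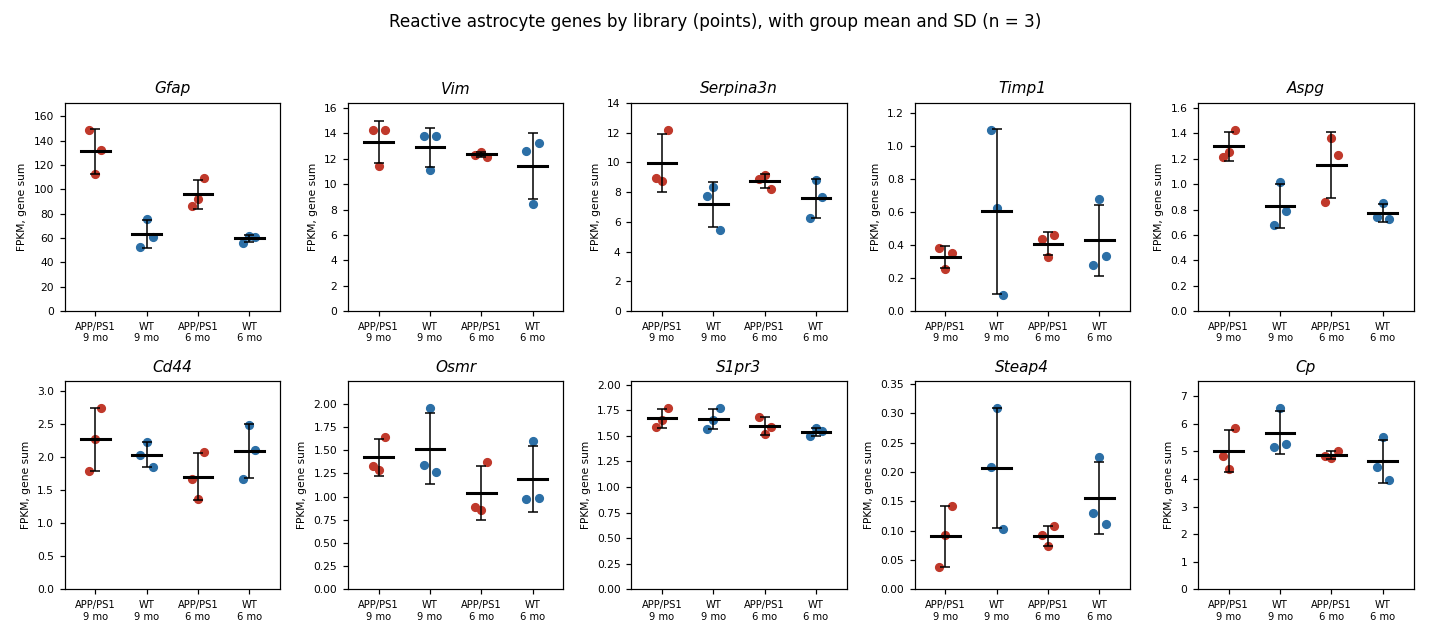
Summed FPKM per gene on the vertical axes for the 10 genes in the 4 groups, with a point per library and the group mean and SD in black (n = 3). Gfap in APP/PS1 lies at 112 to 149 FPKM at 9 months and 86.3 to 109 FPKM at 6 months, above the 52.8 to 75.6 FPKM of all wild-type libraries, while the groups of Vim, S1pr3, Cd44, Osmr and Cp overlap at both ages.

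Vim, the filament partner of Gfap, did not separate by genotype. It had 14.3, 11.4 and 14.2 FPKM in APP/PS1 and 13.8, 11.1 and 13.8 FPKM in wild type at 9 months. The 6-month values were 12.3, 12.6 and 12.2 FPKM in APP/PS1 and 12.6, 8.47 and 13.2 FPKM in wild type. The groups overlapped at both ages, and wild-type library 2 of 6 months was the lowest of the 12. The log2 change was 0.04 at 9 months, with a 95% interval of −0.29 to 0.38, and 0.14 at 6 months, with an interval of −0.20 to 0.47. The interval at 9 months ends below the lower limit for Gfap, which was 0.76. At 6 months the intervals overlap, as the lower limit for Gfap was 0.38. The difference between the changes of these genes was not tested. In APP/PS1 libraries of 9 months Gfap averaged 131 FPKM and Vim 13.3 FPKM, levels that are already divided by transcript length.

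Of 12 other intermediate filament genes, among them the neurofilaments and the nuclear lamins, none was called in any of the 6 comparisons. At 9 months 0 had an unadjusted limma p under 0.05, against 9.73% of all genes. Their median log2 change at 9 months was −0.01, beside 0.01 for all genes tested. Nefm, a neurofilament subunit, had the smallest p of the list over both ages and changed by 0.06 (limma adjusted p = 0.657).

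Aspg, an asparaginase that is low in resting brain, was likewise higher in every APP/PS1 library of an age than in every wild-type library of that age, without being called. It had 1.21, 1.26 and 1.43 FPKM in APP/PS1 and 0.679, 1.02 and 0.791 FPKM in wild type at 9 months. In the libraries of 6 months the values were 0.857, 1.36 and 1.23 FPKM in APP/PS1 and 0.742, 0.856 and 0.725 FPKM in wild type. The groups did not overlap at either age, though APP/PS1 library 1 of 6 months, at 0.857 FPKM, lay next to the highest wild-type library of that age, at 0.856 FPKM. The log2 change was 0.53 at 9 months (SE 0.16, limma adjusted p = 0.319) and 0.43 at 6 months (SE 0.16, limma adjusted p = 0.343). Averaged over both ages it was 0.48 (SE 0.11), its unadjusted p ranked 102nd of 13593, and its limma adjusted p was 0.175. Aspg averaged 1.01 FPKM, a level below which only 7.10% of the tested genes lay.

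Serpina3n, which encodes a secreted inhibitor of serine proteases, did not overlap between the genotypes at 9 months. It had 8.96, 8.73 and 12.2 FPKM in APP/PS1 and 7.75, 8.32 and 5.43 FPKM in wild type at 9 months. At 6 months it had 8.87, 9.13 and 8.23 FPKM in APP/PS1 and 6.24, 8.81 and 7.66 FPKM in wild type, and there the groups overlapped. The log2 change was 0.47 at 9 months (SE 0.17, limma adjusted p = 0.401) and 0.21 at 6 months (SE 0.17, limma adjusted p = 0.666), so the gene was not called at either age. The difference between these changes was 0.25 (SE 0.24) and was not called either (limma adjusted p = 0.738).

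Groups that do not overlap are frequent with 3 libraries each. At 9 months 3 members were higher in every APP/PS1 library (Gfap, Aspg and Serpina3n), and 9.28% of the tested genes behaved in that way. At 6 months the members were Gfap and Aspg, against 6.7% of the tested genes. Gfap and Aspg were higher without overlap at both ages, as were 0.655% of the tested genes.

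Serpina3n has close copies in the mouse genome, and 9 of them were in the table. Their means were all below 0.5 FPKM, so none was tested. Serpina3g was the highest of them at a mean of 0.357 FPKM, against 8.36 FPKM for Serpina3n. Serpina3f was listed at 0 in all 6 APP/PS1 libraries and at 0.0418 to 0.369 FPKM in all 6 wild-type libraries. How reads were divided between these similar genes is not given in the sources used here, so the low values of the copies are uncertain.

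**Figure D2:**
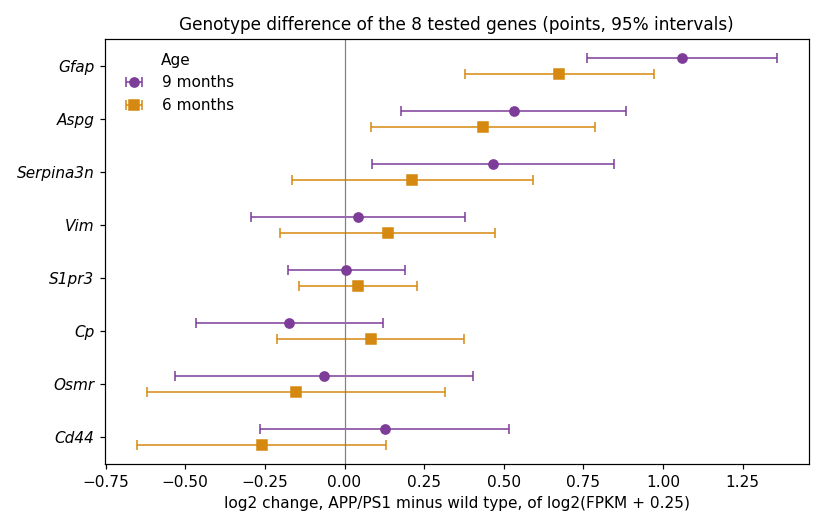
Change in log2(FPKM + 0.25), APP/PS1 minus wild type, of the 8 members that passed the filter, with 95% intervals from limma on the horizontal axis, at 9 months (circles) and 6 months (squares). The intervals of Gfap and Aspg lie above 0 at both ages and that of Serpina3n at 9 months, and those of Vim, S1pr3, Cp, Osmr and Cd44 include 0 at both.

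None of the 3 receptor genes was called. S1pr3, a receptor for sphingosine 1-phosphate, had 1.59, 1.65 and 1.77 FPKM in APP/PS1 and 1.57, 1.65 and 1.77 FPKM in wild type at 9 months. The 6-month values were 1.69, 1.51 and 1.58 FPKM in APP/PS1 and 1.50, 1.58 and 1.55 FPKM in wild type. The libraries were almost level, and the 95% interval of the log2 change ran from −0.18 to 0.19 at 9 months and from −0.14 to 0.23 at 6 months. No other gene of sphingosine 1-phosphate signalling was called, with 9 of 10 tested. At 9 months 1 had an unadjusted limma p under 0.05, against 9.73% of all genes. S1pr5, a receptor of oligodendrocytes, changed by 0.41 at 9 months (limma adjusted p = 0.358).

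Osmr, which pairs with gp130 to bind oncostatin M, had 1.33, 1.29 and 1.64 FPKM in APP/PS1 and 1.34, 1.95 and 1.26 FPKM in wild type at 9 months. In the libraries of 6 months the values were 0.888, 0.857 and 1.37 FPKM in APP/PS1 and 0.975, 1.60 and 0.987 FPKM in wild type. The highest library was a wild-type one at each age. The log2 change was −0.06 (95% interval −0.53 to 0.40) at 9 months and −0.15 (95% interval −0.62 to 0.31) at 6 months. None of the 16 tested genes of the gp130 and STAT3 pathway was called in any comparison. At 9 months 3 had an unadjusted limma p under 0.05, against 9.73% of all genes. Their median change at that age was −0.03, beside 0.01 for all genes. Il6st, the gene of gp130, had a log2 change of −0.19 over both ages (limma adjusted p = 0.575).

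Cd44, the receptor for hyaluronan, had 1.79, 2.28 and 2.74 FPKM in APP/PS1 and 2.04, 2.23 and 1.85 FPKM in wild type at 9 months. At 6 months it had 1.67, 1.37 and 2.08 FPKM in APP/PS1 and 1.68, 2.49 and 2.12 FPKM in wild type. The APP/PS1 mean was the higher of the 2 at 9 months and the lower at 6 months, with overlap at both ages. The log2 changes were 0.13 (SE 0.18) and −0.26 (SE 0.18), and neither they nor their difference of 0.39 (SE 0.25, limma adjusted p = 0.601) were called. Of 12 tested genes for hyaluronan turnover and for CD44 partners, 0 were called in any comparison. At 9 months 0 had an unadjusted limma p under 0.05, against 9.73% of all genes.

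Cp, the copper-containing ferroxidase of astrocyte membranes and of the choroid plexus, had 4.83, 4.35 and 5.85 FPKM in APP/PS1 and 5.17, 6.56 and 5.28 FPKM in wild type at 9 months. The 6-month values were 4.85, 4.76 and 5.02 FPKM in APP/PS1 and 4.44, 5.50 and 3.96 FPKM in wild type. The groups overlapped at both ages. The log2 change was −0.17 (SE 0.13, limma adjusted p = 0.737) at 9 months and 0.08 (SE 0.13, limma adjusted p = 0.858) at 6 months.

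Choroid plexus markers varied widely between libraries. Summed over 13 markers, they reached 119, 79.3 and 302 FPKM in APP/PS1 and 315, 350 and 360 FPKM in wild type at 9 months. At 6 months the sums were 104, 337 and 309 FPKM in APP/PS1 and 6.76, 300 and 14.6 FPKM in wild type. The 3 libraries with the lowest sums were wild-type libraries 1 and 3 of 6 months and APP/PS1 library 2 of 9 months, and these had the 3 lowest Cp values. Beyond these 3 the order did not hold. APP/PS1 library 2 of 6 months, with 337 FPKM of markers, had 4.76 FPKM of Cp. APP/PS1 library 1 of that age, with 104 FPKM of markers, had 4.85 FPKM of Cp. With the choroid plexus level as a covariate, the Cp change was −0.06 at 9 months (limma adjusted p = 0.921) and −0.10 at 6 months (limma adjusted p = 0.831). The part of choroid plexus tissue in the Cp values was not tested.

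Among 13 tested genes of iron and copper handling, Tfrc, the transferrin receptor, was called over both ages (0.37, limma adjusted p = 0.0497). In that comparison 0.118% of all tested genes were called. None of the 13 was called at 9 or at 6 months alone.

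Timp1 and Steap4 averaged 0.443 and 0.136 FPKM and did not pass the filter, so they were left out of the tests above. Timp1, an inhibitor of matrix metalloproteinases, had 0.380, 0.255 and 0.351 FPKM in APP/PS1 and 1.10, 0.622 and 0.0991 FPKM in wild type at 9 months. In the libraries of 6 months the values were 0.438, 0.329 and 0.458 FPKM in APP/PS1 and 0.281, 0.676 and 0.333 FPKM in wild type. The wild-type libraries of 9 months held both its highest and its lowest value. Steap4, a reductase of iron and copper ions, had 0.0382, 0.0922 and 0.142 FPKM in APP/PS1 and 0.209, 0.309 and 0.104 FPKM in wild type at 9 months. At 6 months it had 0.0932, 0.0740 and 0.108 FPKM in APP/PS1 and 0.130, 0.226 and 0.112 FPKM in wild type.

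Steap4 was lower in every APP/PS1 library at 6 months, as were 9.14% of the tested genes, and the groups overlapped at 9 months. In a fit without the filter, over 18678 genes, Steap4 changed by −0.41 (SE 0.17, limma adjusted p = 0.517) at 9 months and −0.24 (SE 0.17, limma adjusted p = 0.678) at 6 months. Timp1 changed by −0.37 (SE 0.40) and −0.01 (SE 0.40). Neither was called. Of 12 tested metalloproteinase and inhibitor genes besides Timp1, 0 were called in any comparison. At 9 months 2 had an unadjusted limma p under 0.05, against 9.73% of all genes.

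Across the 8 tested members, 6 had a log2 change above 0 at 9 months and 6 at 6 months, where 53.4% and 46.1% of all tested genes did. The member median was 0.08 at 9 months, beside 0.01 for all genes, and 0.11 at 6 months, beside −0.01. Over both ages 5 of the 8 were above 0, with a median of 0.06 beside −0.001 for all genes. Timp1 and Steap4, outside these counts, were below 0 at both ages in the fit without the filter. Vim, S1pr3, Cd44, Osmr and Cp lay between −0.17 and 0.13 at 9 months, where Gfap was at 1.06.

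Age was compared within each genotype. In APP/PS1 mice, 9 against 6 months, Gfap was 0.45 higher on the log2 scale (SE 0.14, 95% interval 0.15 to 0.75, limma adjusted p = 0.221). In wild-type mice it was 0.07 higher (SE 0.14, 95% interval −0.23 to 0.36, limma adjusted p = 0.896). No member was called in either comparison, where 0% of tested genes were called in APP/PS1 and 0.0441% in wild type. At an unadjusted limma p under 0.05 there was 1 member in APP/PS1 (Gfap) and 0 in wild type, against 13.1% and 10.3% of all genes. All 8 tested members were above 0 in APP/PS1, as were 55.7% of all genes, and Osmr (0.39) and Cd44 (0.36) had the next largest values after Gfap. In wild type 6 of the 8 were above 0, with a member median of 0.08, beside −0.004 for all genes. Osmr was 0.30 and Cp was 0.28 higher at 9 months in wild type, with limma adjusted p-values of 0.643 and 0.504.

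The genotype difference in Gfap was larger at 9 than at 6 months by 0.38 on the log2 scale (SE 0.19, 95% interval −0.04 to 0.80). Its unadjusted limma p was 0.0707 and its adjusted p was 0.479, so a change of the genotype effect with age was not called. None of the 8 members was called in that comparison, where 0.00736% of tested genes were called, and 0 had an unadjusted limma p under 0.05, against 11.3% of all genes.

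Gfap had 2 transcripts in the table. ENSMUST00000067444 held 95.9% to 98.7% of the summed FPKM in each library, and the remainder was ENSMUST00000077902. ENSMUST00000067444 had 143, 109 and 129 FPKM in APP/PS1 and 50.8, 72.6 and 59.8 FPKM in wild type at 9 months. The 6-month values were 85.1, 90.9 and 106 FPKM in APP/PS1 and 54.3, 59.8 and 59.0 FPKM in wild type. It was called at 9 months (1.06, SE 0.14, limma adjusted p = 0.0387 over 22322 transcripts, of which 0.0627% were called). Over both ages it was called as well (0.88, limma adjusted p = 0.0120, with 0.0896% of transcripts called), but not at 6 months alone (0.70, limma adjusted p = 0.211, with 0.0448% called). Leaving out each of the 12 libraries in turn kept the call over both ages every time, but the call at 9 months in 2 fits, those without APP/PS1 library 2 and without wild-type library 2 of 9 months.

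ENSMUST00000077902 had 5.49, 3.30 and 2.97 FPKM in APP/PS1 and 1.98, 3.07 and 1.28 FPKM in wild type at 9 months. In the libraries of 6 months the values were 1.18, 1.22 and 3.28 FPKM in APP/PS1 and 1.83, 2.27 and 1.92 FPKM in wild type. The groups overlapped at both ages, and the transcript was not called (0.84 at 9 months, limma adjusted p = 0.725, and −0.21 at 6 months, limma adjusted p = 0.918). The difference between the transcripts' changes was not tested other than by their shares. Its share of Gfap was 2.96% ± 0.72 in APP/PS1 and 3.30% ± 1.05 in wild type at 9 months, and 1.89% ± 0.95 in APP/PS1 and 3.35% ± 0.27 in wild type at 6 months (SD, n = 3 each). At 6 months the share was lower in every APP/PS1 library (1.37%, 1.32% and 2.997%) than in every wild-type library (3.26%, 3.65% and 3.14%), with a two-sided exact permutation p of 0.1, the smallest that 3 against 3 can give. Averaged over the ages the share was 0.90 percentage points lower in APP/PS1 (difference −0.90, two-sided exact permutation p = 0.09, adjusted p = 0.18 over 4 transcript shares). The smallest p this permutation could give was 0.005. The share of the other Gfap transcript is the mirror image of this one. The same test was thus counted again among the 4, which makes the adjusted p too small.

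Among the 29 member transcripts, 10 averaged at least 0.5 FPKM and 5 were listed at 0 in all 12 libraries, 4 of them of Cd44 and 1 of Vim. Cp was spread over 8 transcripts, of which ENSMUST00000108325 held 68.9% to 84.7% of the sum and ENSMUST00000003714 held 7.26% to 12.9%. The shares of both overlapped between genotypes at 9 months, and over both ages the two-sided exact permutation p-values were 0.705 and 0.72. At 6 months the share of ENSMUST00000108325 was lower in every APP/PS1 library, at 70.4% ± 2.25, against 74.6% ± 1.31 in wild type (SD, n = 3 each, exact permutation p = 0.1, the smallest that 3 against 3 can give).

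Transcripts below 0.5 FPKM were unevenly listed. Vim transcript ENSMUST00000141365 was above 0 in 4 of 6 APP/PS1 libraries, at 0.908 to 1.83 FPKM, and in 1 of 6 wild-type libraries, at 0.466 FPKM. For Timp1 at 9 months, ENSMUST00000115342 was at 0 to 0.0231 FPKM in APP/PS1 and 0.0991 to 0.947 FPKM in wild type. The other Timp1 transcript, ENSMUST00000009530, was at 0.232 to 0.380 FPKM in APP/PS1 and 0 to 0.159 FPKM in wild type at that age. At 6 months both Timp1 transcripts overlapped between the groups. How reads shared between transcripts were divided is not stated in the labels, and these low values were not tested.

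**Figure D3:**
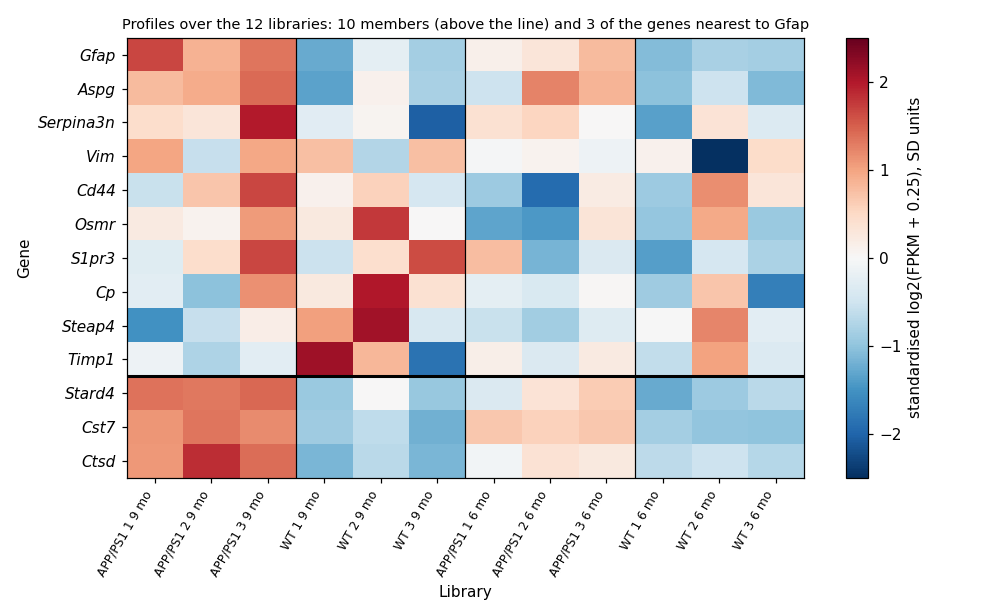
Standardised log2(FPKM + 0.25) in SD units, as colour, for the 10 members (above the black line) and 3 of the genes nearest to Gfap (below it), with the 12 libraries as columns. Gfap, Aspg, Stard4, Cst7 and Ctsd are high in the 3 APP/PS1 libraries of 9 months, and Vim, Cp, Timp1 and Steap4 vary without that order.

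The genes most like Gfap were found by the root mean square difference of standardised log2 values over the 12 libraries, among 12642 genes that averaged 1 FPKM or more. The nearest was Stard4, a carrier of cholesterol between membranes, at 0.26 SD units. It was followed by Cst7, a cystatin of activated microglia, at 0.35. Also among the 8 nearest were the lysosomal protease gene Ctsd (0.43), App (0.43), Prnp (0.43), Chaf1a (0.45) and Rhbdd1 (0.45). Stard4 had 10.5, 10.5 and 10.7 FPKM in APP/PS1 and 7.05, 8.31 and 7.02 FPKM in wild type at 9 months, and 7.79, 8.81 and 9.28 FPKM in APP/PS1 and 6.65, 7.08 and 7.37 FPKM in wild type at 6 months. The order of its libraries thus resembled that of Gfap over a smaller range. These likenesses describe 12 libraries that share 4 groups, and carry no test.

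Among the members themselves, the nearest pair was Gfap and Aspg at 0.44 SD units, then Osmr and Cp at 0.63, and Cd44 and Osmr at 0.64. Gfap and Serpina3n stood at 0.77 and Gfap and Vim at 1.19. Outside the members, Aspg lay nearest to Chaf1a, Sept10 and Asah1 (0.36 to 0.40), and Serpina3n to Agtrap, Tmem176a and Hibch (0.37 to 0.49).

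Other genes named as markers of reactive astrocytes were mostly not called. Of 17 tested pan-reactive genes besides the members, 1 was called at 9 months and over both ages, and 5 had an unadjusted limma p under 0.05 at 9 months, where 0.0956% of all tested genes were called and 9.73% had such a p. It was Ctsd, at 0.54 (SE 0.05, limma adjusted p = 0.000972) and 0.36 (SE 0.03, limma adjusted p = 0.00178), a lysosomal protease that microglia also express strongly. Hspb1, a small heat shock protein on the same list, had −0.80 at 9 months (SE 0.23, limma adjusted p = 0.294). Tnfrsf12a, also on that list, had −0.43 at 9 months (SE 0.19, limma adjusted p = 0.502). Both were among the 5 with an unadjusted limma p under 0.05, so that count holds changes in both directions. The median of the list was 0.12 at 9 months, beside 0.01 for all genes. Of 9 tested genes named A1, after astrocytes exposed to inflammatory stimuli, 0 were called in any comparison, and at 9 months 2 had an unadjusted limma p under 0.05 and the median was 0.23. The 7 tested genes named A2, after astrocytes of ischaemic brain, included 0 calls, 1 unadjusted limma p under 0.05 at 9 months and a median of −0.08 at that age. Serping1 stands on both the pan-reactive and the A1 list, and Cd109, Ptx3 and S100a10 on both the pan-reactive and the A2 list.

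General astrocyte markers were not called in any comparison. The 20 markers, which include the glutamate transporters Slc1a2 and Slc1a3, the water channel Aqp4 and the transcription factor Sox9, summed to 1978 to 2090 FPKM in APP/PS1 and 1959 to 2137 FPKM in wild type at 9 months. At 6 months they summed to 1977 to 2095 FPKM in APP/PS1 and 1948 to 1971 FPKM in wild type. The groups overlapped at 9 months, and at 6 months the lowest APP/PS1 sum was just above the highest wild-type sum. None of the 20 markers was at 0 in all libraries, and their median change was −0.01 at 9 months and 0.01 at 6 months. At these ages 0 and 2 of them had an unadjusted limma p under 0.05, against 9.73% and 11.7% of all genes. Relative to the mean log2 level of these markers, Gfap stood at 1.65, 1.25 and 1.40 log2 units in APP/PS1 and 0.18, 0.58 and 0.36 log2 units in wild type at 9 months. With that marker level as a covariate, an alternative chosen after seeing the data, Gfap kept a log2 change of 1.06 at 9 months (SE 0.11, limma adjusted p = 0.00795).

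The summed microglial markers were higher in every APP/PS1 library than in every wild-type library of the same age. The 14 markers summed to 243 to 272 FPKM in APP/PS1 and 171 to 199 FPKM in wild type at 9 months, and to 206 to 220 FPKM in APP/PS1 and 179 to 205 FPKM in wild type at 6 months. In log2 change 14 of 14 were above 0 at 9 months and 13 of 14 at 6 months, as were 53.4% and 46.1% of all tested genes. At 9 months 2 of the 14 were called, Cst7 (3.59, limma adjusted p = 1.41e-05) and Trem2 (1.05, limma adjusted p = 0.00622), and at 6 months 1 was called, Cst7. Of all tested genes, 0.0956% were called at 9 months and 0.0441% at 6 months. Tmem119, a marker of resting microglia named after its values were seen, was the 1 of the 14 not above 0 at 6 months. It was lower in every APP/PS1 library than in every wild-type library at that age, as were 9.14% of the tested genes. Its 6-month means were 8.87 ± 0.643 FPKM in APP/PS1 and 10.2 ± 0.314 FPKM in wild type (SD, n = 3 each), and its groups overlapped at 9 months. With the microglial level as a covariate, an alternative also chosen after seeing the data, the Gfap change at 9 months was 1.07, with an SE of 0.47 in place of 0.14, and was not called (limma adjusted p = 0.999). The microglial level and the genotype run together in these libraries, and their parts in the Gfap difference cannot be told apart. The part of microglia in the values of the other members was not tested.

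**Figure D4:**
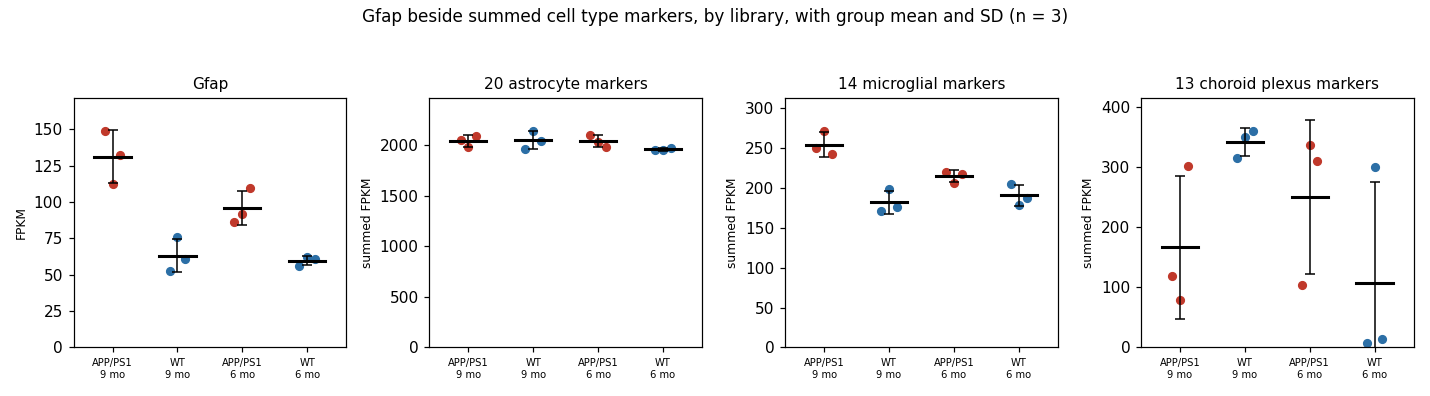
Gfap FPKM (left) and summed FPKM of astrocyte, microglial and choroid plexus markers by group, with a point per library and the group mean and SD in black (n = 3). The astrocyte sums stay between 1948 and 2137 FPKM in all groups, the microglial sums are highest in APP/PS1 at 9 months (243 to 272 FPKM), and the choroid plexus sums range from 6.76 to 360 FPKM.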

How the data were processed

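Long RNA libraries of 12 brain samples were analysed, 3 in each of 4 groups of genotype and age, and the other libraries of the series were not used here. The authors deposited FPKM per transcript in 1 table, and the notes that the submitters gave on processing name Bowtie 0.12.2 and build mm8 without saying what each did. Which tool estimated the FPKM, on which annotation, was not stated in the labels. Transcript FPKM were summed per gene. Of the gene IDs, 98.1% matched a reference table of mouse names, and all 10 member IDs did. No 2 libraries held more than 4 equal nonzero transcript values. Genes whose mean reached 0.5 FPKM were put on the scale log2(FPKM + 0.25) and fitted in R 4.3.3 by limma 3.58.1 (a single model of 4 group means, eBayes with trend), and Benjamini-Hochberg adjustment ran over all genes tested. Log2 changes understate the change of low genes. All tests were two-sided. The limma fit of genes was tested on simulated data, and the transcript fits and permutation tests were not. Members, marker lists and pathway lists were chosen with earlier results of these data known. All 10 members are given, with at most 3 genes of smallest p over both ages from each other list, 8 genes nearest to Gfap and 3 nearest to other members. Some genes that this rule names are not reported here.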

Additional observations from a re-analysis of the deposited data

How the results depend on the processing

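Of 1136 log2 changes of members refitted under alternatives (pseudocounts, filter, quantile scaling, covariates, a replicate block, subsets of libraries), 1117 kept direction and call or moved by less than their SE, 10 values that were not called changed sign and moved by more than their SE, 9 lost the call (all of them Gfap) and 0 called values reversed. A value that was not called counted as kept whenever its direction held, however far it moved. Of the called values, Gfap at 9 months kept its call in 17 of 24 refits, and Gfap over both ages in 21 of 23. The count of called members at 9 months, 1, became 0 with the 6 libraries alone, under the replicate block and with the microglial covariate, and was 0 to 1 without single libraries. Over both ages it became 0 under the replicate block (limma adjusted p = 0.0956) and the microglial covariate (0.997), and stayed 1 without any library. At 9 months the block gave a limma adjusted p of 0.156. Correlations of same-numbered deviations ran from −0.120 to 0.126, and those of differently numbered ones from −0.151 to 0.149. These do not settle whether equal numbers pair the libraries. Members called stayed at 0 in the other 4 comparisons.

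All genes called at 6 months, 6, became 3 under the replicate block and 2 with the microglial covariate (4 to 17 without single libraries). At 9 months 13 became 6 and 2 (5 to 14). Over both ages 16 became 10 with a pseudocount of 0.1, 9 with the choroid plexus covariate, 7 under the block, 9 with the astrocyte covariate and 2 with the microglial covariate (8 to 16). For age in APP/PS1, 0 became 3 with a pseudocount of 1 and 3 with the 6 libraries alone (0 to 5). For age in wild type, 6 became 1 with no filter, 0 with the choroid plexus covariate, 12 with the 6 libraries alone, 0 under the block, 0 with the astrocyte covariate and 2 with the microglial covariate (0 to 13). For the genotype difference between ages, 1 became 0 with the choroid plexus, astrocyte and microglial covariates and 2 under the block (0 to 4). The astrocyte and microglial covariates were chosen after seeing the data. The causes were not tested.

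Without single libraries, 1 to 2 member transcript calls remained. The share of Gfap transcript ENSMUST00000067444 differed by 0.72 to 1.20 percentage points and that of ENSMUST00000077902 by −1.20 to −0.72, and of Cp, ENSMUST00000108325 differed by −3.37 to 0.32 and ENSMUST00000003714 by −0.01 to 1.08. With no counts, depth sets no stated limit, but 19 of 29 member transcripts averaged under 0.5 FPKM.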
